A study of Caenorhabditis elegans with 11 samples.

Results

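Of the cytosolic ribosomal protein genes of Caenorhabditis elegans, rpl-11 and rpl-25 are each present as an autosomal copy and an X-linked copy. These 2 paralog pairs, rpl-11.1 with rpl-11.2 and rpl-25.2 with rpl-25.1, were picked by WormBase symbol from the 46756 genes of the count tables, giving 4 genes that were all found in all 11 libraries. RPL-11 is a large-subunit protein of the central protuberance, which it builds together with RPL-5 and the 5S rRNA, and in mammals free RPL11 binds and inhibits the p53 ligase MDM2. RPL-25 lies at the exit of the peptide tunnel, where nascent chains meet the nascent polypeptide-associated complex, whose subunits are encoded by icd-1 and icd-2 in the worm. In C. elegans the X chromosome is largely silent in much of the germline, though not in every germ cell, unlike the autosomes.

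Wild-type N2 hermaphrodites were placed on RNAi bacteria on day 1 of adulthood and collected on day 5, after 96 h at 20°C with daily transfers. The bacteria were E. coli HT115 making double-stranded RNA against xpo-1, the exportin that carries preribosomal subunits out of the nucleus, or HT115 with the empty vector L4440 as control. Poly(A) RNA was sequenced from polysome fractions (2 xpo-1 RNAi and 2 control libraries), monosome fractions (1 xpo-1 RNAi and 2 control libraries) and total RNA (2 xpo-1 RNAi and 2 control libraries). A polysome holds an mRNA with several ribosomes and a monosome an mRNA with 1 ribosome, so that the share of an mRNA on polysomes is a measure of its translation. Whole worms were lysed, so fewer cells of a type and less RNA per cell cannot be told apart. The xpo-1 RNAi monosome fraction is a single library, and its values have no replicate check.

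The libraries held between 15589628 and 21828657 counts assigned to genes. The targeted gene was low in the libraries labelled xpo-1 RNAi: xpo-1 averaged 37.4 ± 1.29 CPM (counts scaled to a common library size) in xpo-1 RNAi total RNA and 283 ± 41.4 CPM in control total RNA (SD, n = 2 each). In each of the 5 groups with 2 libraries these differed by more than counting error, with chi-square over degrees of freedom from 12.9 to 56.3.

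rpl-11.1 (WBGene00004422) lies on the minus strand of chromosome V at 3585313-3586064 in WBcel235, with 3 exons and 655 nt of exonic sequence. Its partner rpl-11.2 (WBGene00004423) lies on the minus strand of chromosome X at 2241738-2242618, with 4 exons and 731 nt. Each carries 196 codons. rpl-25.2 (WBGene00004439) lies on the minus strand of chromosome I at 8329062-8329684 with 4 exons and 516 nt, and codes for 146 residues. rpl-25.1 (WBGene00004438) lies on the plus strand of chromosome X at 4715178-4715801 with 3 exons and 499 nt, and codes for 147 residues. No annotated gene overlaps any of the 4. The other cytosolic ribosomal protein genes listed, 45 of the large and 31 of the small subunit, are all autosomal. Because the copies of a pair code for similar proteins, some reads may have been assigned to the wrong copy. The handling of reads that match more than 1 gene is not given in the sources used here.

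Both autosomal copies were the more abundant ones. Levels were compared per length, as RPKM, the CPM divided by the exonic length in kilobases. In polysome RNA rpl-11.1 had 1703 and 1738 RPKM in xpo-1 RNAi worms, against 4327 and 4639 RPKM in control worms. In monosome RNA it had 1845 RPKM in the xpo-1 RNAi library, against 1201 and 920 RPKM in control libraries. In total RNA it had 2130 and 1586 RPKM in xpo-1 RNAi worms, against 3014 and 2950 RPKM in control worms. Control polysome RNA was the highest group for this gene and control monosome RNA the lowest, and the xpo-1 RNAi polysome and monosome values lay within the range of the xpo-1 RNAi total values.

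The X-linked copy of RPL-11 had another order. In polysome RNA rpl-11.2 had 117 and 146 RPKM in xpo-1 RNAi worms, against 447 and 832 RPKM in control worms. In monosome RNA it had 455 RPKM in the xpo-1 RNAi library, against 568 and 710 RPKM in control libraries. In total RNA it had 593 and 506 RPKM in xpo-1 RNAi worms, against 889 and 1424 RPKM in control worms. Control total RNA was highest here and xpo-1 RNAi polysome RNA lowest, below every other library. Control polysome, control monosome and xpo-1 RNAi total libraries overlapped each other, so their order is not set apart.

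The 2 copies of the tunnel-exit protein showed the same contrast. In polysome RNA rpl-25.2, the autosomal copy, had 1032 and 1044 RPKM in xpo-1 RNAi worms, against 4302 and 4426 RPKM in control worms. In monosome RNA it had 942 RPKM in the xpo-1 RNAi library, against 968 and 1414 RPKM in control libraries. In total RNA it had 1449 and 1032 RPKM in xpo-1 RNAi worms, against 2166 and 2393 RPKM in control worms. As with rpl-11.1, control polysome RNA was highest and control total RNA next, and the remaining 4 groups lay close together. The X-linked rpl-25.1 had 94.8 and 112 RPKM in xpo-1 RNAi polysome RNA, against 265 and 389 RPKM in control polysome RNA. It had 259 RPKM in xpo-1 RNAi monosome RNA, against 233 and 493 RPKM in control monosome RNA. It had 578 and 469 RPKM in xpo-1 RNAi total RNA, against 705 and 1144 RPKM in control total RNA. As with rpl-11.2, control total RNA was highest and xpo-1 RNAi polysome RNA lowest.

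**Figure D1:**
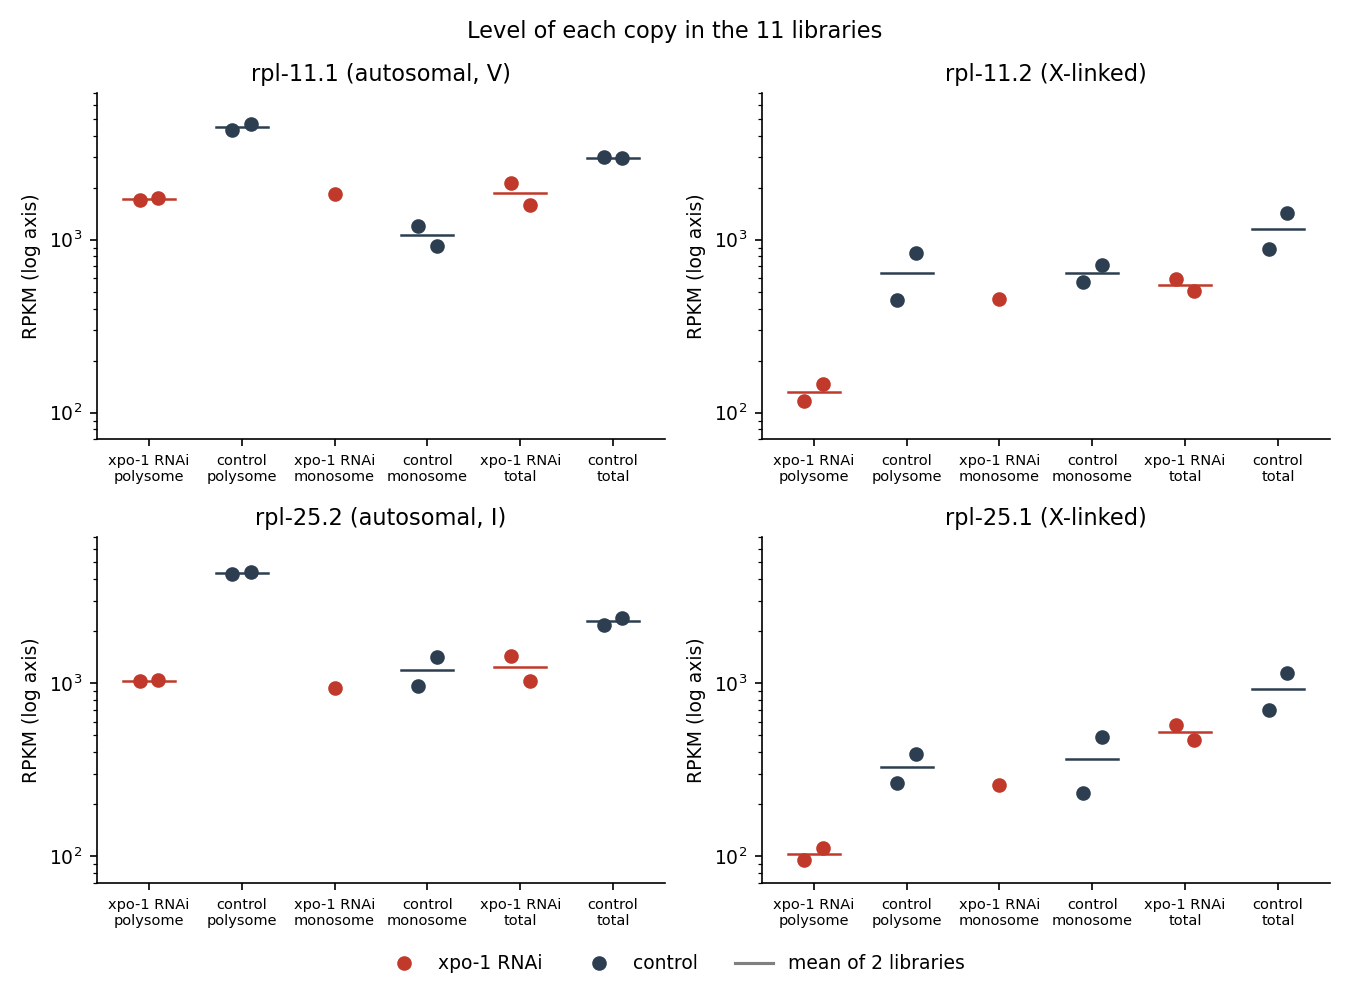
Level of each copy in RPKM (log axis) in each of the 11 libraries; points are libraries, lines are means of 2 libraries, and columns are grouped by RNA kind with xpo-1 RNAi left of control. The autosomal copies (left panels) peak in control polysome RNA, at 4302 to 4639 RPKM, while the X-linked copies (right panels) peak in control total RNA and reach 94.8 to 146 RPKM in xpo-1 RNAi polysome RNA.

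All copies had lower relative levels in total RNA of xpo-1 RNAi worms. In total RNA 4 of 4 genes were called lower in xpo-1 RNAi worms than in control worms, by edgeR's quasi-likelihood test with an adjusted p below 0.05 and more than 1.5-fold change, where 16.9% of the 13795 genes tested were called lower. rpl-11.1 fell by 0.70 ± 0.21 on the log2 scale (SE, edgeR adjusted p = 0.0296) and rpl-11.2 fell by 1.09 ± 0.24 (edgeR adjusted p = 0.00691). rpl-25.2 fell by 0.90 ± 0.21 (edgeR adjusted p = 0.0103) and rpl-25.1 fell by 0.84 ± 0.24 (edgeR adjusted p = 0.0229). The xpo-1 RNAi and control libraries did not overlap for any of the 4, but the share of all genes without overlap was not taken. Of the other ribosomal proteins, 31 of 31 small-subunit genes (median log2 change -1.02) and 41 of 45 large-subunit genes (median -0.99) were called lower, beside a median of 0.01 over all genes. rpl-11.1 was among the genes of the group that fell least, at rank 73 of 80 counted from the lowest, and its partner rpl-5 changed by -0.86. Among the tunnel-exit neighbours of RPL-25, rpl-22 changed by -1.46 and rpl-35, which was not called, by -0.51. Both chaperone subunits were called lower, icd-1 by -1.31 and icd-2 by -1.61.

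The total RNA calls rested on individual libraries. Without xpo-1 RNAi total replicate 2 none of the 4 was called, with changes from -0.99 to -0.50, without control total replicate 2 the calls of rpl-11.1 (-0.75) and rpl-25.1 (-0.48) were lost, and without control total replicate 1 that of rpl-11.1 (-0.73). Body-wall muscle markers moved with the same contrast: 10 of 12 were called lower, and their summed level ran from 3921 to 4140 CPM in xpo-1 RNAi total RNA and from 5493 to 9693 CPM in control total RNA. Sperm markers also did, with 12 of 14 called lower and 1 higher, and sums of 17.6 to 20.8 CPM in xpo-1 RNAi total RNA, against 149.9 to 658 CPM in control total RNA. So did epidermis markers, with 5 of 9 called lower and sums of 547 to 595 CPM in xpo-1 RNAi total RNA, against 1716 to 2676 CPM in control total RNA. Germline and oocyte markers had 4 of 36 called lower, with sums of 29261 to 32879 CPM in xpo-1 RNAi and 28367 to 33865 CPM in control total RNA. Intestine markers had 5 of 12 called lower and 2 higher, with sums of 6384 to 7484 CPM in xpo-1 RNAi and 6918 to 7600 CPM in control total RNA. Neuron markers had 0 of 9 called, with sums of 635 to 652 CPM in xpo-1 RNAi and 525 to 536 CPM in control total RNA. None of these markers was at 0 in total RNA, and their part in the change of the ribosomal protein genes was not tested.

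On polysomes the loss was larger in size. In polysome RNA 4 of 4 copies were again called lower in xpo-1 RNAi worms, where 22.4% of the 13940 genes tested were called lower, and the calls were kept under every alternative run, with each library left out included. rpl-11.2 fell by 2.36 ± 0.31 on the log2 scale, 5.14-fold lower (edgeR adjusted p = 0.000878), and rpl-25.2 fell by 2.14 ± 0.16, 4.42-fold lower (edgeR adjusted p = 0.000151). rpl-25.1 fell by 1.74 ± 0.25, 3.33-fold lower (edgeR adjusted p = 0.00131), and rpl-11.1 fell by 1.45 ± 0.15, 2.74-fold lower (edgeR adjusted p = 0.000405). No xpo-1 RNAi polysome library overlapped a control polysome library for any copy, but the share of all genes without overlap was not taken. Of the other ribosomal proteins, 31 of 31 small-subunit genes (median -1.77) and 44 of 44 large-subunit genes tested (median -1.80) were called lower too. Within this group rpl-11.2 was at rank 7 and rpl-25.2 at rank 16 of 79 from the lowest, while rpl-25.1 was at rank 49 and rpl-11.1 at rank 71. rpl-5, which joins RPL-11 in the central protuberance, changed by -1.09. At the tunnel exit rpl-22 changed by -2.22, rpl-35 by -1.25, icd-1 by -2.38 and icd-2 by -2.46, and 12 of 12 listed neighbours and duplicated genes were called lower. The muscle markers had 5 of 12 called lower, with sums of 4706 to 5458 CPM in xpo-1 RNAi polysome RNA and 6582 to 10079 CPM in control polysome RNA. The sperm markers had 12 of 13 called lower and 1 higher, with sums of 12.7 to 13.5 CPM in xpo-1 RNAi and 294 to 1413 CPM in control polysome RNA. In an xpo-1 RNAi polysome library 1 of the 14 listed was at 0. The epidermis markers had 6 of 9 called lower and 1 higher, with sums of 315 to 385 CPM in xpo-1 RNAi and 1264 to 1591 CPM in control polysome RNA. Germline and oocyte markers had 5 of 36 called higher and 2 lower, with sums of 16735 to 18343 CPM in xpo-1 RNAi and 10804 to 16917 CPM in control polysome RNA. Intestine markers had 5 of 12 called lower and 2 higher, with sums of 5586 to 6781 CPM in xpo-1 RNAi and 6420 to 6627 CPM in control polysome RNA. Neuron markers had 1 of 9 called lower and 3 higher, with sums of 574 to 594 CPM in xpo-1 RNAi and 473 to 489 CPM in control polysome RNA. The part of all these markers was not tested.

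Whether the change on polysomes exceeded the change in total RNA was tested as an interaction over 8 libraries. The differences were -0.70 ± 0.26 for rpl-11.1, -1.22 ± 0.44 for rpl-11.2, -0.85 ± 0.37 for rpl-25.1 and -1.20 ± 0.27 for rpl-25.2 on the log2 scale. In edgeR 0 of 4 passed the adjusted threshold, with adjusted p between 0.0972 and 0.302, and 0% of the 14900 genes tested did. At an unadjusted p under 0.05 all 4 copies and 2406 of the 14900 genes passed. DESeq2 called 2 of the 4, rpl-11.2 and rpl-25.2, where it called 690 of the 6234 genes it gave an adjusted p.

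Adding both copies gives the relative level of mRNA for each protein. RPKM is relative to the other mRNA of a library, so amounts per worm or on all polysomes were not measured. For RPL-11 the copies summed to 1819 and 1884 RPKM in xpo-1 RNAi polysome RNA, against 4774 and 5471 RPKM in control polysome RNA, and to 2723 and 2092 RPKM in xpo-1 RNAi total RNA, against 3903 and 4374 RPKM in control total RNA. For RPL-25 they summed to 1127 and 1155 RPKM in xpo-1 RNAi polysome RNA, against 4567 and 4815 RPKM in control polysome RNA, and to 2027 and 1500 RPKM in xpo-1 RNAi total RNA, against 2870 and 3537 RPKM in control total RNA. In all 4 of these contrasts the sums did not overlap, and since the autosomal copy made up most of each sum, they followed rpl-11.1 and rpl-25.2. How often other genes lack such an overlap was not taken.

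The copies of a pair differed most in how they were distributed between RNA kinds. The ratio of autosomal to X-linked copy, taken within a library and per length, does not depend on how libraries are scaled. It was above 1 in 11 of 11 libraries for both pairs. For rpl-11 the ratio was 14.6 and 11.9 in xpo-1 RNAi polysome RNA, against 3.59 and 3.13 in xpo-1 RNAi total RNA, and 9.67 and 5.58 in control polysome RNA, against 3.39 and 2.07 in control total RNA. In monosome RNA it was 4.06 in the xpo-1 RNAi library, against 2.12 and 1.30 in control libraries. Every one of the 4 polysome libraries thus lay above every one of the 7 other libraries, whose highest ratio was 4.06.

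The rpl-25 pair had the same separation. Its ratio was 10.9 and 9.36 in xpo-1 RNAi polysome RNA, against 2.51 and 2.20 in xpo-1 RNAi total RNA, and 16.2 and 11.4 in control polysome RNA, against 3.07 and 2.09 in control total RNA. In monosome RNA it was 3.64 in the xpo-1 RNAi library, against 4.14 and 2.87 in control libraries. The lowest polysome ratio, 9.36, was above the highest of the 7 other libraries, 4.14. In counts, the smallest number behind these ratios was 893 for rpl-25.1 in an xpo-1 RNAi polysome library, where rpl-25.2 had 10048 and made up 91.8% of the pair (95% Wilson interval 91.3 to 92.3%, counting error only), so counting error is small beside the differences between libraries.

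**Figure D2:**
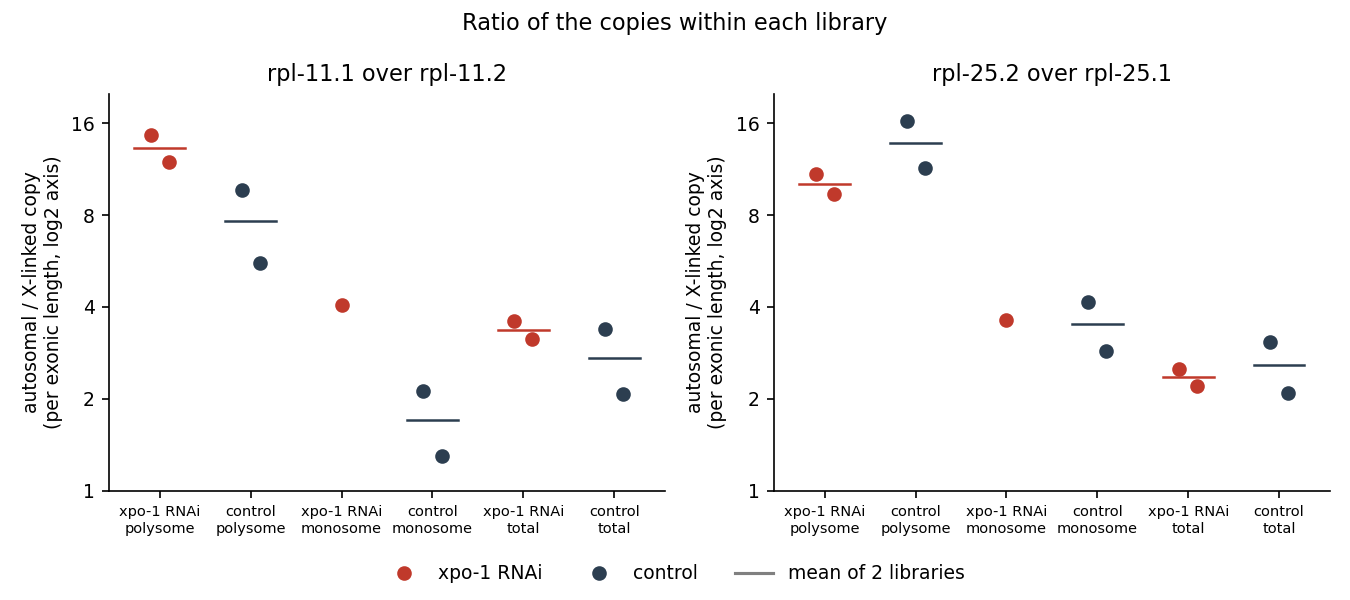
Ratio of the autosomal to the X-linked copy per exonic length (log2 axis) in each library, for the rpl-11 pair (left) and the rpl-25 pair (right); points are libraries, lines are means of 2 libraries, with xpo-1 RNAi left of control and polysome left of monosome and total RNA. The 4 polysome libraries reach 5.58 to 14.6 for rpl-11 and 9.36 to 16.2 for rpl-25, above all 7 other libraries.

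In xpo-1 RNAi worms the shift within the pairs came with lower X-linked copies on polysomes. Against total RNA of xpo-1 RNAi worms, with the libraries not paired, rpl-11.2 fell by 2.06 ± 0.17 on the log2 scale in polysome RNA (edgeR adjusted p = 7.68e-10). In the same comparison rpl-25.1 fell by 2.34 ± 0.17 (edgeR adjusted p = 4.3e-11). The autosomal rpl-11.1 had a change of -0.11 ± 0.21 and rpl-25.2 of -0.25 ± 0.19, and neither was called. Thus 2 of 4 were called lower, where 22.6% of the 13344 genes tested were. Of all genes tested, 1.51% had a lower value than rpl-11.2 and 0.937% a lower value than rpl-25.1. With the X-linked copy as the offset of each library, the rpl-11 ratio was 3.95-fold higher on polysomes (log2 1.98 ± 0.15, edgeR adjusted p = 8.3e-09) and the rpl-25 ratio 4.30-fold higher (log2 2.10 ± 0.13, edgeR adjusted p = 4.32e-08). Under these offsets 92.9% and 95.3% of all genes were called, with medians of 2.14 and 2.40, so a rise relative to the X-linked copy was shared by nearly all genes and was not particular to the partner copy. The exact permutation test of the ratio, 2 libraries against 2, gave two-sided p = 0.333 for both pairs, the smallest it allows.

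Control worms gave the same direction with a wider spread. In polysome against total RNA rpl-25.1 fell by 1.61 ± 0.41 on the log2 scale (edgeR adjusted p = 0.0425), a call lost without any 1 of the control polysome and total libraries, at -1.87 to -1.21, and when libraries were scaled by total counts. rpl-11.2 had a change of -0.97 ± 0.34 (edgeR adjusted p = 0.102), rpl-25.2 of 0.83 ± 0.23 (edgeR adjusted p = 0.0527) and rpl-11.1 of 0.48 ± 0.21 (edgeR adjusted p = 0.157), so that 1 of 4 was called, where 13.2% of the 14754 genes tested were called in either direction and 10.6% lower. Under 8 of 12 alternatives rpl-25.2 was called higher. The rpl-25 ratio was 5.34-fold higher on polysomes (log2 2.42 ± 0.78, edgeR adjusted p = 0.0094), a call made for 45% of all genes under that offset and lost without any 1 of the 4 polysome and total libraries, when the change ran from 2.14 to 2.72. The rpl-11 ratio was 2.79-fold higher (log2 1.48 ± 0.63) and not called (edgeR adjusted p = 0.0705), where 21.5% of genes were called. The polysome and total libraries did not overlap in either ratio (exact permutation two-sided p = 0.333, the smallest that 2 against 2 allows).

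Among the 80 ribosomal protein genes both X-linked copies stood at the low end of this comparison. In control worms rpl-25.1 had the lowest polysome against total change of the 80, rpl-41.2 (-1.14) was next and rpl-11.2 was at rank 3, while rpl-25.2 had the highest and rpl-11.1 was at rank 66. In xpo-1 RNAi worms rpl-41.2 (-2.45) was lowest of 79, with rpl-25.1 at rank 2 and rpl-11.2 at rank 4, and rpl-25.2 at rank 59 and rpl-11.1 at rank 66. rpl-41.1 and rpl-41.2 encode the shortest ribosomal protein and are another duplicated pair, with both copies on chromosome I. The 31 small-subunit genes had medians of -0.41 in xpo-1 RNAi worms and 0.19 in control worms, and the 45 large-subunit genes of -0.47 (44 tested) and 0.10. The ranks are a description, and no test of the group was made.

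**Figure D3:**
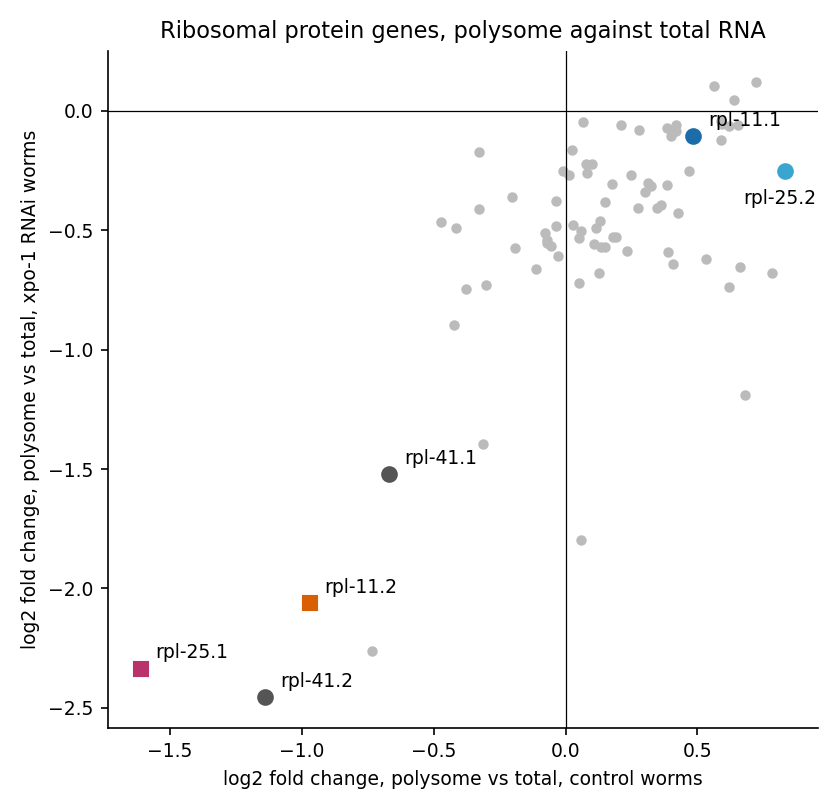
log2 fold change of polysome against total RNA for each ribosomal protein gene, in xpo-1 RNAi worms (vertical axis) and in control worms (horizontal axis), which share no library; grey points are the ribosomal protein genes not named. The X-linked rpl-11.2 and rpl-25.1 lie at the lower left at -2.06 and -2.34 (xpo-1 RNAi) and -0.97 and -1.61 (control), beside rpl-41.2, and the autosomal rpl-11.1 and rpl-25.2 lie at the right.

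The X chromosome as a whole did not have lower values on polysomes. In xpo-1 RNAi worms the 1950 X-linked genes tested had a median polysome against total change of 0.55 and 7.28% were called lower, while the 11382 autosomal genes had a median of -0.03 and 2861 were called lower. In control worms the 2059 X-linked genes had a median of 0.12, with 5.20% called lower. The 12683 autosomal genes there had a median of -0.07, with 11.3% called lower. Both X-linked ribosomal protein genes thus went against the median of their chromosome. The germline and oocyte markers were also lower on polysomes: 20 of 36 were called lower in xpo-1 RNAi worms (median -0.75) and 21 of 36 in control worms (median -1.22). Their summed level was 16735 to 18343 CPM in xpo-1 RNAi polysome RNA, against 29261 to 32879 CPM in xpo-1 RNAi total RNA, and 10804 to 16917 CPM in control polysome RNA, against 28367 to 33865 CPM in control total RNA. The 12 body-wall muscle markers summed to 4706 to 5458 CPM in xpo-1 RNAi polysome and 3921 to 4140 CPM in xpo-1 RNAi total RNA. In control worms they overlapped, at 6582 to 10079 CPM in polysome and 5493 to 9693 CPM in total RNA. Epidermis sums were lower on polysomes, at 315 to 385 against 547 to 595 CPM in xpo-1 RNAi worms. In control worms epidermis sums were 1264 to 1591 against 1716 to 2676 CPM. Neuron sums were also lower on polysomes, at 574 to 594 against 635 to 652 CPM in xpo-1 RNAi worms. In control worms neuron sums were 473 to 489 against 525 to 536 CPM. Intestine sums overlapped in xpo-1 RNAi worms and were lower on polysomes in control worms. Sperm sums were lower on polysomes in xpo-1 RNAi worms and overlapped in control worms. No germline or muscle marker was at 0 in any library, and the part of all these lists in the ratios was not tested.

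Against monosomes the autosomal copies separated from the X-linked ones in control worms. rpl-11.1 was 3.86-fold higher on polysomes than on monosomes (log2 1.95 ± 0.21, edgeR adjusted p = 0.00194) and rpl-25.2 3.36-fold higher (log2 1.75 ± 0.23, edgeR adjusted p = 0.00296), so 2 of 4 were called higher, where 15.1% of genes were. rpl-11.2 had a change of -0.14 ± 0.34 and rpl-25.1 of -0.28 ± 0.40, neither called, and the signs turned in 4 alternatives for rpl-11.2 and 1 for rpl-25.1. Of the other ribosomal protein genes 29 of 31 small-subunit (median 1.25) and 39 of 45 large-subunit genes (median 1.30) were called higher, so the autosomal copies went with the group, and the X-linked ones stood at ranks 3 and 5 of 80 from the lowest. Autosomal genes held the ranks beside them: rpl-41.1 (-2.72) and rpl-41.2 (-2.65) were lowest and called lower, and rpl-42 (-0.23) was at rank 4. The rpl-11 ratio was 4.47-fold higher on polysomes (log2 2.16 ± 0.64, edgeR adjusted p = 0.0098, 16.7% of genes called under that offset), a call lost without either control monosome library. The rpl-25 ratio was 3.94-fold higher (log2 1.98 ± 0.77) and not called (edgeR adjusted p = 0.0716, 11.5% of genes called).

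Between monosome and total RNA of control worms neither ratio was called. rpl-11.1 was lower on monosomes (log2 -1.46 ± 0.21, edgeR adjusted p = 0.018) and was the 1 of 4 called, where 4.37% of genes were called lower and 8.24% in either direction, and the call was lost without control monosome replicate 2 or either control total library. rpl-11.2 (-0.83 ± 0.34), rpl-25.1 (-1.33 ± 0.40) and rpl-25.2 (-0.91 ± 0.23) were not called, and 27 of 31 small-subunit and 36 of 45 large-subunit genes were called lower. The ratios changed by -0.68 ± 0.62 for rpl-11 (edgeR adjusted p = 0.502, 9.17% of genes called under that offset) and 0.44 ± 0.74 for rpl-25 (edgeR adjusted p = 0.613, 28% of genes called). Within equal replicate numbers the rpl-11 ratio was 2.12 in monosome RNA, against 3.39 in total RNA, and 1.30 against 2.07, a log2 difference of -0.68 in both, and the rpl-25 ratio was 4.14 against 3.07 and 2.87 against 2.09, log2 differences of 0.43 and 0.45. With the replicate number as a block the rpl-11 ratio was called (-0.68, edgeR adjusted p = 0.0393), where the share of all genes called was not taken. With that block 4 of 4 copies were called lower, where 34.0% of the 14754 genes were called, 2213 higher and 2801 lower.

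**Figure D4:**
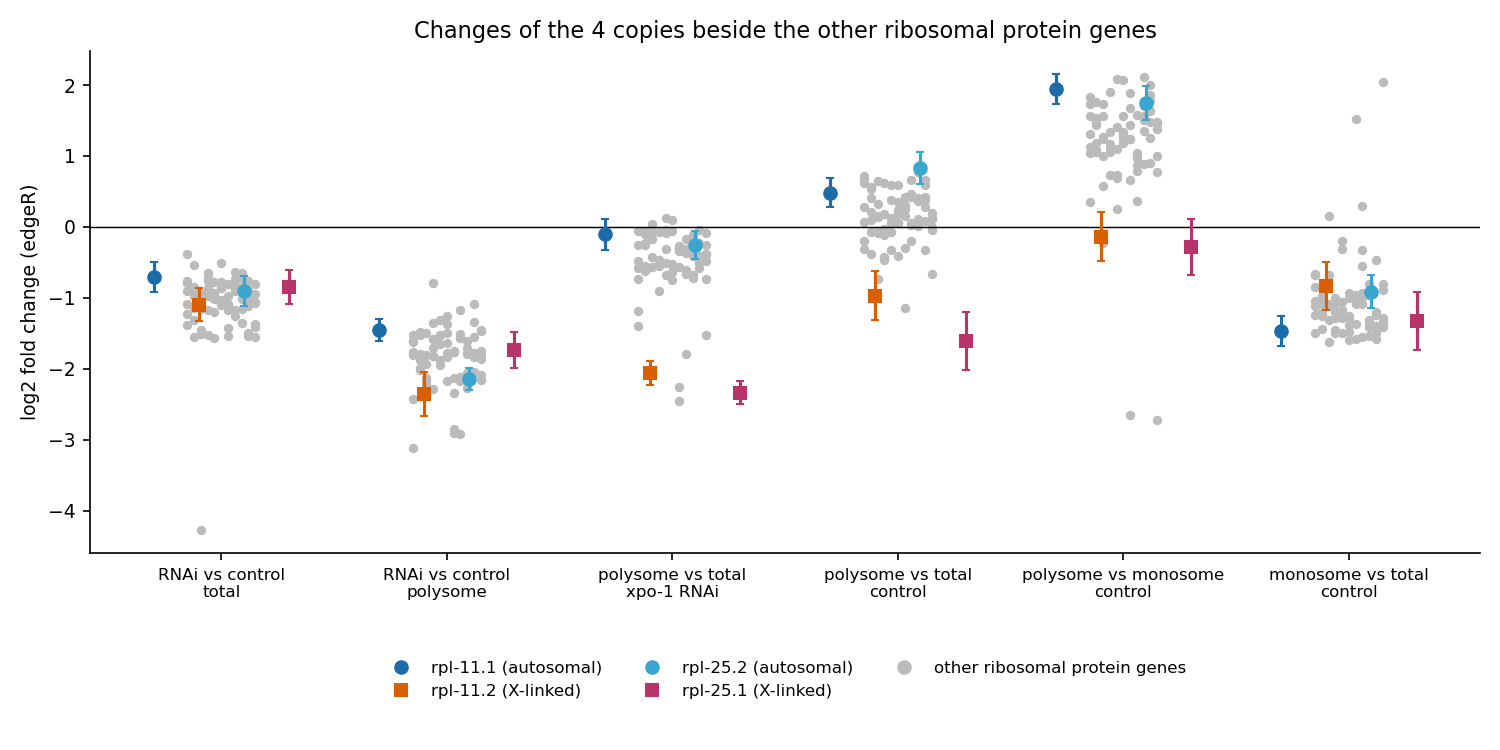
log2 fold change of each copy (coloured, with a standard error derived from the edgeR F statistic) beside the other ribosomal protein genes (grey points), in 6 comparisons. The X-linked copies (squares) lie among the other genes under xpo-1 RNAi against control and below most of them where polysome RNA is set against total or monosome RNA. The lowest grey point in total RNA is rpl-42 at -4.28.

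With the X-linked copy as the offset, the ratio was not called between xpo-1 RNAi and control worms in either RNA kind. In polysome RNA the rpl-11 ratio changed by 0.80 ± 0.62 (edgeR adjusted p = 0.217, 83.3% of genes called under that offset) and the rpl-25 ratio by -0.45 ± 0.40 (edgeR adjusted p = 0.295, 80.6% of genes called). The choice of offset decided the call for rpl-11. With the autosomal copy as the offset, where the share of all genes called was not taken, its ratio was called at 0.89 (edgeR adjusted p = 0.0159). The xpo-1 RNAi and control libraries did not overlap in either, with opposite directions in the pairs: the rpl-11 ratio averaged 13.3 ± 1.89 in xpo-1 RNAi and 7.62 ± 2.90 in control polysome RNA, and the rpl-25 ratio 10.1 ± 1.08 in xpo-1 RNAi and 13.8 ± 3.42 in control polysome RNA (SD, n = 2 each). The exact permutation test gave two-sided p = 0.333 for both. Each rests on the control library left in: without control polysome replicate 1 the rpl-11 ratio changed by 1.25, and without control polysome replicate 2 the rpl-25 ratio changed by -0.68. In total RNA the changes were 0.30 ± 0.42 for rpl-11 (edgeR adjusted p = 0.529, 46.6% of genes called) and -0.13 ± 0.46 for rpl-25 (edgeR adjusted p = 0.828, 25.7% of genes called), and the libraries overlapped. Without control total replicate 1 the rpl-11 ratio in total RNA changed by 0.70. In the interaction the ratios differed by 0.50 ± 0.67 for rpl-11 (edgeR adjusted p = 0.563, 0.0134% of genes called) and -0.31 ± 0.55 for rpl-25 (edgeR adjusted p = 0.716, 0.047% of genes called).

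A difference between the control libraries ran through these ratios. In 6 of 6 combinations of pair and RNA kind, the control library numbered 2 had a lower ratio than the one numbered 1, and its X-linked copies were higher. Counts of rpl-11.2 were 1608 and 2068 in xpo-1 RNAi polysome RNA, against 5993 and 9827 in control polysome RNA, and 7922 and 8386 in xpo-1 RNAi total RNA, against 10319 and 19287 in control total RNA. The spread between the control libraries was thus wider than that between the xpo-1 RNAi libraries. Marker sums also differed between these control libraries. Sperm markers were higher in the library numbered 2 each time, with 294 and 1413 CPM in polysome, 49.4 and 209.98 CPM in monosome and 149.9 and 658 CPM in total RNA for the libraries numbered 1 and 2, and so were body-wall muscle markers, with 6582 and 10079 CPM in polysome, 3675 and 5306 CPM in monosome and 5493 and 9693 CPM in total RNA. Germline and oocyte markers were lower in it each time, with 16917 and 10804 CPM in polysome, 38994 and 30668 CPM in monosome and 33865 and 28367 CPM in total RNA. The part of these markers was not tested.

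Monosome RNA of xpo-1 RNAi worms was compared by value alone. Against the mean of the control libraries, rpl-11.1 differed by 0.79 on the log2 scale, rpl-11.2 by -0.50, rpl-25.1 by -0.41 and rpl-25.2 by -0.33, beside a median of -0.03 over all genes and 0.29 over 79 ribosomal protein genes. Only rpl-11.1 of the 4 was higher than in both control libraries, by 0.60 and 0.98. Marker sums stood apart in the same library: germline and oocyte markers had 62303 CPM in xpo-1 RNAi monosome RNA, against 38994 and 30668 CPM in control monosome RNA, and epidermis markers 527 CPM, against 993 and 966 CPM. Their part was not tested. Translation efficiency, the log2 ratio of polysome over monosome counts in xpo-1 RNAi relative to control worms, was -2.27 for rpl-11.1, -1.90 for rpl-11.2, -1.28 for rpl-25.1 and -1.83 for rpl-25.2. The median was -2.13 over 80 ribosomal protein genes and -0.03 over 13923 genes. Over the 8 choices of single libraries the values ran from -2.61 to -1.97 for rpl-11.1, from -2.63 to -1.05 for rpl-11.2, from -2.30 to -0.39 for rpl-25.1 and from -2.18 to -1.53 for rpl-25.2. These ranges overlap, so the order of the copies is not set apart, and all values share the single xpo-1 RNAi monosome library.

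Across the 11 libraries, copies on the same kind of chromosome followed each other more closely than copies of the same protein. Over log2 CPM the X-linked rpl-11.2 and rpl-25.1 had Pearson r = 0.93 (Spearman rho 0.86) and the autosomal rpl-11.1 and rpl-25.2 r = 0.85 (rho 0.76), while the copies had r = 0.29 (rho 0.30) within the rpl-11 pair and r = 0.39 (rho 0.50) within the rpl-25 pair. The points share the RNA kinds and treatments, and these values are descriptive. Among 7309 genes with a mean of at least 10 CPM, the other copies left out, those most like rpl-11.1 were rpl-23 (r = 0.99), another large-subunit protein, F23C8.5 (r = 0.98) and par-5 (r = 0.98), a 14-3-3 protein. Most like rpl-11.2 were iff-2 (r = 0.98), an eIF5A translation factor, snu-13 (r = 0.96), a small nucleolar RNP protein, and hpo-8 (r = 0.96). These genes are autosomal and were closer to rpl-11.2 than the X-linked rpl-25.1 was (r = 0.93). Most like rpl-25.1 were lep-5 (r = 0.96), an X-linked noncoding RNA of developmental timing, and the autosomal perm-3 (r = 0.95) and pno-1 (r = 0.92). Most like rpl-25.2 were mrps-6 (r = 0.98), a mitochondrial ribosomal protein, F44E5.1 (r = 0.98) and nduf-7 (r = 0.98), a subunit of respiratory complex I.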

How the data were processed

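Raw counts per gene were deposited by the authors for each of the 11 libraries. Per the labels, reads were trimmed with Trimmomatic, aligned to WBcel235 with STAR and counted with featureCounts of Subread; versions, strand and multi-mapping settings are not given in the sources used here. The deposited tables of normalised values, 1 per RNA kind, were not used. The genes and lists were chosen with earlier results of these data known. The named genes were the 4 copies, xpo-1, ribosomal neighbours of the proteins, rpl-41.1 and rpl-41.2, and for each copy the 3 other genes with the highest Pearson correlation over the 11 libraries of log2(CPM + 1), among genes with a mean of at least 10 CPM; genes named as lowest or highest of a list were named after their values were seen.

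Genes that reached 10 counts in 2 or more libraries of a fit were tested with edgeR 4.0.16 (R 4.3.3; quasi-likelihood, TMM scaling, Benjamini-Hochberg over all genes), and called where the adjusted p was below 0.05 and the change exceeded 1.5-fold. Ratios within pairs were tested in edgeR with the log count of the X-linked copy as the offset. Beside the test stands the exact permutation test over libraries. Standard errors of log2 changes were derived as the absolute change over the square root of the edgeR F statistic. RPKM used TMM-scaled library sizes and the exonic lengths of the count tables. Replicates are described as biological duplicates. DESeq2 1.42.0, other scalings and filters, a replicate block, the other copy as offset and leaving out each library were alternatives. Some of the fits were run on simulated counts with a single fixed spread for all genes. This checked the code and not how the fits behave with the spread of these libraries. Gene models and coding lengths came from the count tables and the Ensembl annotation of WBcel235; no sequence was used here. Intervals cover counting error only.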

Additional observations from a re-analysis of the deposited data

How the results depend on the processing

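The 4 members called lower in polysome RNA, the 2 called higher on polysomes than on monosomes in control worms, the 2 called lower on polysomes in xpo-1 RNAi worms, and both ratios of that last comparison (1.83 to 2.12 for rpl-11 and 1.99 to 2.21 for rpl-25) kept their counts and calls under every alternative run. The 4 called lower in xpo-1 RNAi total RNA became 2 with scaling by total counts (35.9% of all genes called) and 0 to 4 with 1 library left out, with 0 without xpo-1 RNAi total replicate 2 (10.3%). In the interaction, where 0% of genes were called, 0 became 2 with no filter (2.53% of 22741 genes called), 2 with DESeq2 (690 of 6234) and 0 to 2 with 1 library left out (2 without control polysome replicate 1, 4.87% of 14819). For polysome against total RNA in control worms, 1 became 2 with DESeq2 size factors (7.12% of genes called), with scaling by total counts (12.9%), with no filter (11.7%), with 10 counts in every library (20.5%) and with DESeq2 (20.96%), and 0 to 2 with 1 library left out. For monosome against total RNA, 1 became 3 with no filter (9.09% of genes called) and 3 with DESeq2 (1859 of 11607), and 0 to 1 with 1 library left out. With 1 library left out, the rpl-11 ratio of xpo-1 RNAi over control ran from -0.012 to 0.70 in total RNA (-0.012 without control total replicate 2, called without control total replicate 1) and from 0.46 to 1.25 in polysome RNA (called without control polysome replicate 1), and the rpl-25 ratio from -0.38 to 0.17 in total RNA (0.17 without control total replicate 1) and from -0.68 to -0.17 in polysome RNA (called without control polysome replicate 2). In control worms the rpl-11 ratio ran from 1.03 to 1.88 for polysome against total (called without control polysome replicate 2) and from 1.71 to 2.56 for polysome against monosome RNA (not called without either control monosome library), and the rpl-25 ratio from 2.14 to 2.72 and from 1.70 to 2.27 (called without control monosome replicate 1). Where an arm kept 1 library, it was assumed to vary like the others. With the autosomal copy as the offset, the rpl-11 ratio was called at 0.89 for xpo-1 RNAi against control in polysome RNA and at 1.46 for polysome against total RNA in control worms, and the rpl-25 ratio at 1.98 for polysome against monosome RNA. The sign of rpl-11.2 for polysome against monosome RNA turned to 0.063 with no filter, and ran from -0.61 to 0.23 with 1 library left out, and that of rpl-25.1 from -0.74 to 0.32. The sign of rpl-11.1 for polysome against total RNA in xpo-1 RNAi worms turned to 0.099 with scaling by total counts, and ran from -0.34 to 0.087 with 1 library left out. Scaling by total counts gave translation efficiencies of -1.48, -1.09, -0.45 and -1.01 for rpl-11.1, rpl-11.2, rpl-25.1 and rpl-25.2, and monosome differences of 0.44 for rpl-11.1 and -0.85 for rpl-11.2. The monosome difference of rpl-25.1 ran from -0.95 to 0.13 with 1 control library left out. Causes were not tested.

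With the replicate block, 3 members were called in the interaction (13.2% of all genes called), 3 for polysome against total (39.6%) and 4 for monosome against total RNA in control worms (34.0%), and the rpl-11 ratio was called at 1.47 and -0.68 in those last comparisons and the rpl-25 ratio at 1.98 for polysome against monosome RNA. It changed no other count of members or ratio call. The study's methods describe total RNA and gradient fractions taken from the same cleared lysate, but neither they nor the labels tie this to the replicate numbers. Deviations of same-numbered libraries correlated at 0.78 between control total and polysome, 0.48 between control total and monosome and 0.42 between control monosome and polysome RNA, at 0.05 and 0.14 between xpo-1 RNAi and control total and polysome RNA, and at -0.46 between xpo-1 RNAi polysome and total RNA. A block with those last numbers crossed also called 2 members.

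Scaling by total counts moved the median of all genes by 0.29 in total and 0.41 in polysome RNA (xpo-1 RNAi against control), by 0.19 for polysome against total RNA in xpo-1 RNAi worms, and in control worms by 0.24 for polysome and 0.33 for monosome against total RNA. Calls were then 3309 higher and 1649 lower in total RNA (1649 and 2337 with TMM), 4506 and 2209 in polysome RNA (2161 and 3127), 4266 and 2181 for xpo-1 RNAi polysome against total (3364 and 3015), and in control worms 765 and 1144 for polysome (388 and 1557) and 1231 and 340 for monosome against total RNA (571 and 645). The filter on every library, the crossed block and the monosome alternatives were chosen after seeing the data. With 2 libraries a group and 1 in xpo-1 RNAi monosome RNA, precision is limited by the libraries and not by the counts.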
